A study of Mus musculus with 20 samples.

Results

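Promoter methylation was read at the Rasgrf1 locus on chromosome 9 and at the Gpr1-Zdbf2 locus on chromosome 1 in single mouse blastocysts. The deposited table gives a level in percent for 54034 promoter windows of 3500 bp on build GRCm39, named by chromosome, start and end. A window is taken to run from 3000 bp upstream to 500 bp downstream of an annotated start. Members were the 21 windows whose start falls in a stretch around these genes, 5 at the Rasgrf1 locus and 16 at the Gpr1-Zdbf2 locus, chosen by position and not by level. They are numbered along each chromosome as R1 to R5 and Z1 to Z16.

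The embryos were 10 controls, replicates 1 to 10, and 10 blastocysts labelled Padi6-mutant, replicates 11 to 20. Per the series text, the mutant embryos grew from oocytes with the P620A mutation of Padi6. PADI6 is a member of the peptidylarginine deiminase family and an oocyte protein that the egg hands on to the embryo. The strain, the sire, the sex and litter of an embryo, and the genotype behind the word Control are not stated in the labels or series text. The DNA of a whole blastocyst was bisulfite-sequenced after its polyadenylated RNA had been removed on beads. Cells and parental alleles were therefore not separated, and fewer methylated cells cannot be told apart from fewer methylated alleles per cell. How many DNA molecules lie behind a level is unknown. A level may rest on few of them, possibly from a single allele, and need not give the state of the whole embryo. The labelled stage could not be checked against marker genes, since the table holds methylation alone.

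Imprinted genes are read from 1 parental allele because a control region keeps a methylation mark laid down in the egg or in the sperm, and most such marks come from the egg. Rasgrf1, which encodes an exchange factor that activates Ras and is expressed from the paternal allele in the newborn mouse brain, is among the few loci with a mark of sperm origin, at a repeat-flanked region upstream of the gene. Zdbf2 encodes a zinc finger protein and is also expressed from the paternal allele, on which methylation lies near the gene. In the mouse a long Zdbf2 transcript begins inside the neighbouring gene Gpr1, which encodes a G protein-coupled receptor for chemerin, at a region that the egg methylates. Retention of marks laid down in the egg or in the sperm while the rest of the genome loses methylation is what the preimplantation period is known for. The comparison asks whether these loci differ in level when the egg carried the mutation.

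The windows carry no gene name, and the RefSeq gene table used here is on another build, GRCm38.p6, so no window was assigned to the start of 1 gene. In gene order that table places the lncRNA 4930524O08Rik before Rasgrf1 and the pseudogene Gm17944 and Ctsh, a lysosomal cathepsin gene, after it. Ndufs1 and Eef1b2, genes of respiratory complex I and of translation elongation, come before Gpr1 and Zdbf2, which overlap on opposite strands. The lncRNAs 1700039I01Rik and Gm11608 follow the start of Zdbf2. Windows of such neighbours can be among the 21. The control regions themselves were not analysed here as regions.

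Methylation is read at the cytosine of a CG pair, so the promoters of the 3 genes are shown for how unequally they hold such pairs. All 3 genes matched the RefSeq promoter table, with 5 starts. Each sequence has 250 bases before the start and 50 after it, is given 5′ to 3′ on the strand of the gene on build GRCm38.p6, and has its CG pairs in capitals. These coordinates belong to that build and cannot be set against the windows.
Rasgrf1, chr9:89909525-89909824, plus strand: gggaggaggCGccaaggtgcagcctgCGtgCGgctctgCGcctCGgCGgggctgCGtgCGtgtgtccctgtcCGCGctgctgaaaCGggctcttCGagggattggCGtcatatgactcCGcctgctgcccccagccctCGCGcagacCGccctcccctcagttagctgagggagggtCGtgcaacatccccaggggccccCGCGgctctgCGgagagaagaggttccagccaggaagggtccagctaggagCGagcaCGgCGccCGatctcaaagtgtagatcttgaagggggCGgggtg
Zdbf2, first start, chr1:63200108-63200407, plus strand: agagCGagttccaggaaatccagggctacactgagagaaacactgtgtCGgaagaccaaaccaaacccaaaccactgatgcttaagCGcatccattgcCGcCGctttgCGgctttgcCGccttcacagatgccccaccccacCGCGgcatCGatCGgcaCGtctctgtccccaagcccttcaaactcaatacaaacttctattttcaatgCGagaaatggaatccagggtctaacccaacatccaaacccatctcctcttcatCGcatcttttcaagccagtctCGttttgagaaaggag
Zdbf2, second start, chr1:63273019-63273318, plus strand: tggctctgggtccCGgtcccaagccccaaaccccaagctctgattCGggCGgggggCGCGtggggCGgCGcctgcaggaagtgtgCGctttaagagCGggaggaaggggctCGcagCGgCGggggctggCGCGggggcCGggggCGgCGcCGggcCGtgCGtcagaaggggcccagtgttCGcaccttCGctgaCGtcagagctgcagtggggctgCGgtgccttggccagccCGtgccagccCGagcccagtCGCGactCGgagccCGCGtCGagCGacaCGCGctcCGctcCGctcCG
Gpr1, chr1:63214232-63214531, minus strand: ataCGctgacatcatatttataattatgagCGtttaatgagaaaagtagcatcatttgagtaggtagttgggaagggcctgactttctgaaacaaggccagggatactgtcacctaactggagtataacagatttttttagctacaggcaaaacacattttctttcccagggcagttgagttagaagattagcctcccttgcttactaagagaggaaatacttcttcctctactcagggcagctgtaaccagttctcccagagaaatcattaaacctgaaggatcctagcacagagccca

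The Rasgrf1 promoter held 26 CG pairs, a number that 16.9% of the 32851 promoters of the same length in the table reach. The second Zdbf2 start held 38, a number that 4.95% of promoters reach, and the first held 15, which 34.6% reach. Both Gpr1 starts held 2, against a median of 7 over all promoters. The second Zdbf2 start was also the richest of the 5 in G and C, at 74.7%, against 68.3% for Rasgrf1, 51.3% for the first Zdbf2 start and 41.7% for the Gpr1 start shown.

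The read depth behind a level is unknown, and coverage of an embryo was taken as how many windows it has a value in. This number ran from 4984 to 46950 in controls and from 2875 to 43812 in mutants. Dense coverage was reached by 6 controls, with at least 37049 windows, and by 3 mutants, with at least 38549. The other 4 control embryos reached at most 17002 windows and the other 7 mutant embryos at most 13847. Over the 21 member windows there were 128 control values and 87 mutant values, and 75.8% of all 215 came from densely covered embryos. Control replicate 7 and mutant replicate 17 gave no value at either locus.

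**Figure D1:**
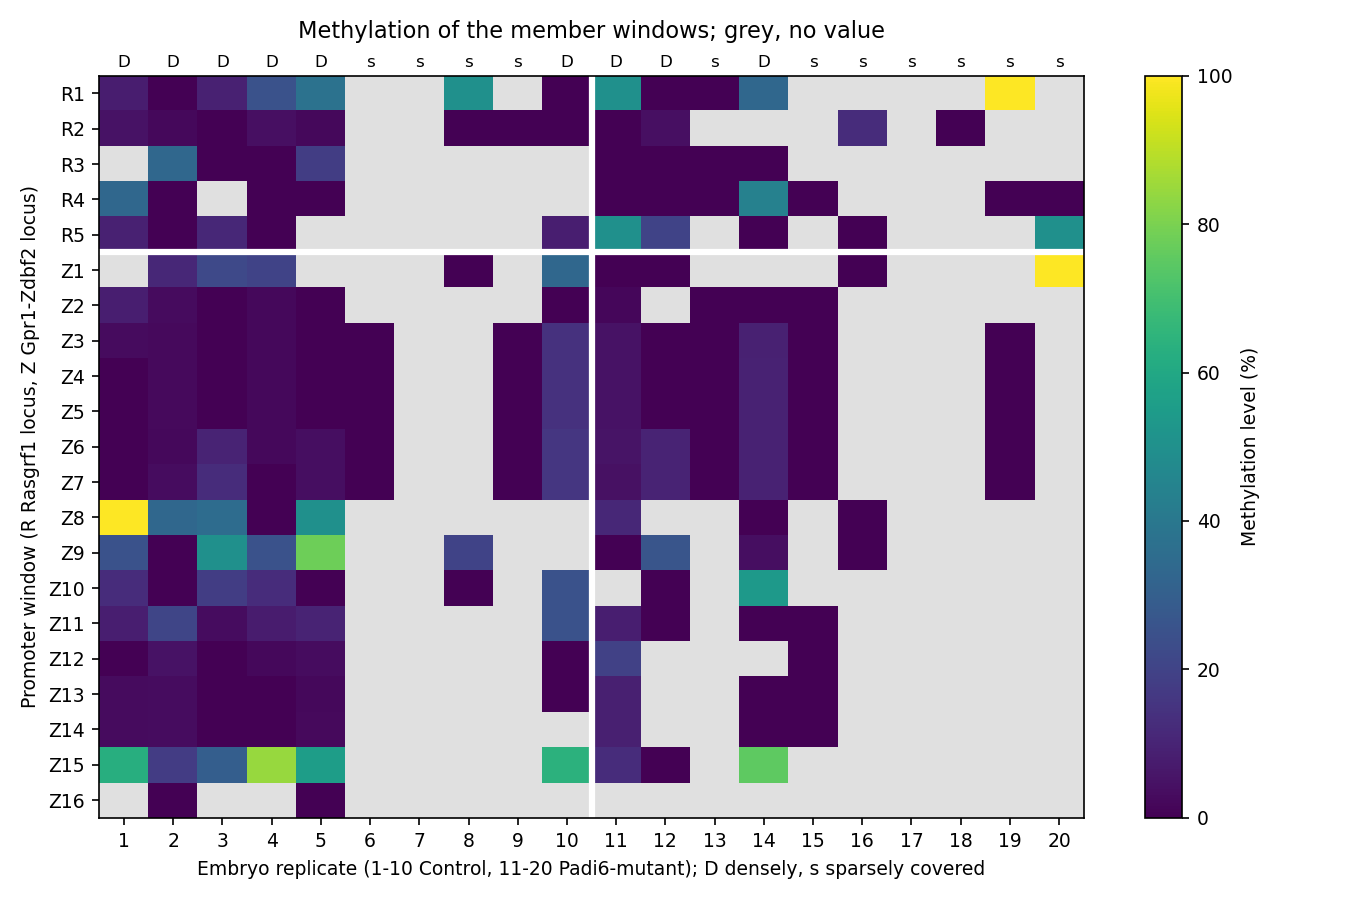
Methylation level (%, colour) of each of the 21 windows (rows; R, Rasgrf1 locus; Z, Gpr1-Zdbf2 locus) in each of the 20 embryos (columns; D, densely covered; s, sparsely covered), with grey where there is no value. Windows R2, Z2 to Z7 and Z12 to Z14 are dark in nearly all embryos with a value, whereas Z8, Z9 and Z15 reach 100%, 77.8% and 84.6% in control embryos.

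Neither locus differed between the groups past the test at any window. With limma fitted over the 37645 windows of the table with at least 3 embryos per group, 18 of the 21 members could be tested, 5 at the Rasgrf1 locus and 13 at the Gpr1-Zdbf2 locus. None passed an adjusted p under 0.05, as 14 of all tested windows did (0.0372%), and the lowest adjusted p of a member was 0.834. At an unadjusted p under 0.05 there were also 0 members, against 5.75% of all tested windows. The lowest unadjusted p of a member in limma was 0.0542, at Z11. That count of 0 became 1 in 8 of the 25 alternatives that tested any member: Z11 without the values deposited above 100 or without control replicate 3 or mutant replicate 11, Z9 without control replicate 2, Z8 without control replicate 4, R5 without mutant replicate 14 or 16, and Z1 without mutant replicate 20. In those 8 fits the limma adjusted p of the member was 0.774 to 0.850. Of the 18 windows 10 had a lower and 8 a higher mean in mutant embryos, and 55.8% of all tested windows were lower. The median difference was -0.20 percentage points over the members and -1.07 over all tested windows. In 0 of 18 windows did the embryos of the groups fail to overlap, a pattern found in 1.35% of all tested windows.

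Among the 18 tested members a difference of at least 10 points downward was found at 5, R3, Z8, Z9, Z11 and Z15. One of at least 10 points upward was found at 2, R1 and R5. Over all tested windows 22.2% were lower and 15.1% higher by that much. The Rasgrf1 locus had 1 of 5 tested windows lower and 2 higher by that much, and the Gpr1-Zdbf2 locus 4 of 13 lower and 0 higher. Z10, which was not tested, was 17.2 points higher in mutant embryos, on 2 mutant values. Some of the counted windows overlap, such as Z8 with Z9 and Z2 to Z7 with each other, so they are not all separate evidence.

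**Figure D2:**
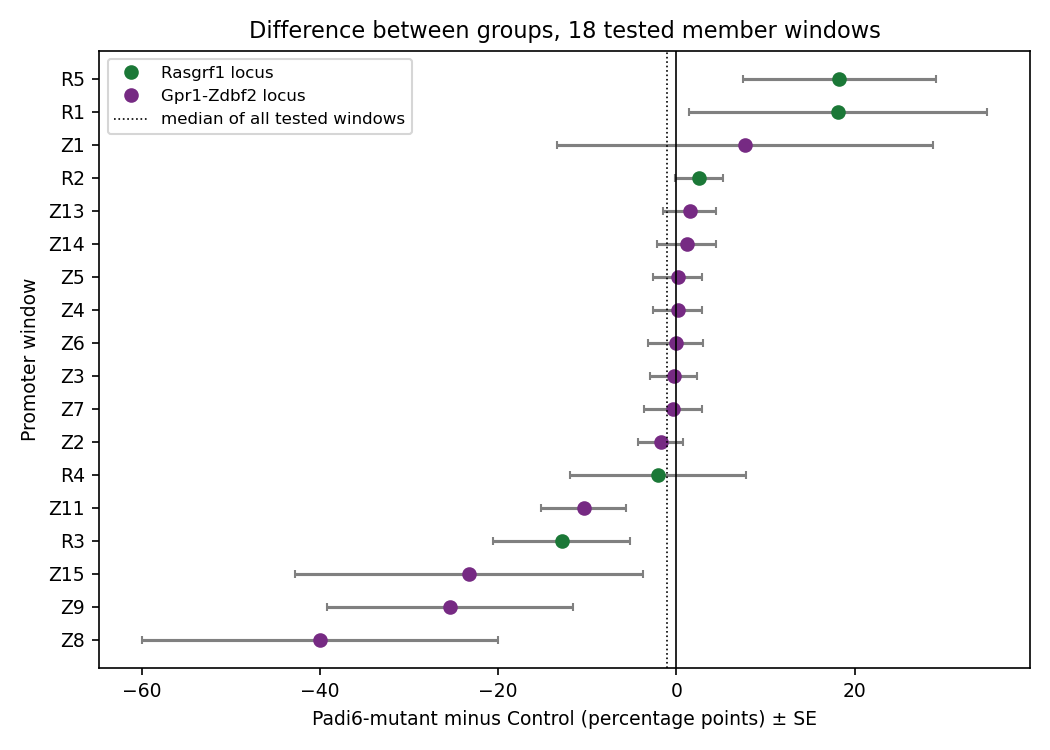
Mean level in Padi6-mutant minus Control embryos (percentage points, points) with its limma SE (bars) for the 18 tested windows, sorted by size. Estimates run from -40.02 points at Z8 to 18.3 points at R5, and the dotted line marks the median of all tested windows, -1.07 points.

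At the Rasgrf1 locus the window R2, on chromosome 9 from 89788961 to 89792460, was nearly free of methylation in both groups. Control replicates 1, 2, 4 and 5 stood at 5%, 2.02%, 3.92% and 2.17%, and replicates 3, 8, 9 and 10 at 0%. Mutant replicates 12 and 16 stood at 4.17% and 12.5%, and replicates 11 and 18 at 0%. The groups overlapped at 0%. Means were 1.64% ± 1.99 (SD, n = 8) for controls and 4.17% ± 5.89 (SD, n = 4) for mutants, which differ by 2.53 points (SE 2.70, 95% interval -3.39 to 8.44, limma adjusted p = 0.841) and by -0.25 points without mutant replicate 16. Of all tested windows 11.5% had a lower control mean.

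R1, from 89705572 to 89709071, was the most methylated window of this locus. Control embryos gave 8%, 0%, 9.09%, 25%, 37.5%, 50% and 0% in replicates 1, 2, 3, 4, 5, 8 and 10. Mutant embryos gave 50%, 0%, 0%, 33.3% and 100% in replicates 11, 12, 13, 14 and 19. Both groups ran from 0% to at least 50%, so they overlapped over the whole control range. Means were 18.5% ± 19.5 (SD, n = 7) and 36.7% ± 41.5 (SD, n = 5), and the difference of 18.2 points (SE 16.7, 95% interval -18.6 to 54.9, limma adjusted p = 0.834) was smaller than the spread between mutant embryos. It was 2.32 points without mutant replicate 19, a sparsely covered embryo.

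R3, from 89910360 to 89913859, had the lowest mutant mean of the locus. Control replicates 2, 3, 4 and 5 stood at 33.3%, 0%, 0% and 18.2%, and mutant replicates 11, 12, 13 and 14 all at 0%. The mutant embryos thus matched the lower 2 of 4 control embryos. Means were 12.9% ± 16.1 (SD, n = 4) and 0% (n = 4), a difference of -12.9 points (SE 7.70, 95% interval -30.9 to 5.16, limma adjusted p = 0.834). Without control replicate 2 it was -6.06 points.

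R4, from 89912296 to 89915795, shares 1564 bp with R3, so the pair are not separate evidence. Control replicate 1 stood at 33.3% and replicates 2, 4 and 5 at 0%. Mutant replicate 14 stood at 43.75% and the other 6 mutant embryos with a value at 0%. A single embryo of each group was thus high. Means were 8.33% ± 16.7 (SD, n = 4) and 6.25% ± 16.5 (SD, n = 7), a difference of -2.08 points (SE 9.88, 95% interval -24.0 to 19.8, limma adjusted p = 0.961). The sign turned to 6.25 points without control replicate 1 and in densely covered embryos alone.

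R5, from 89933205 to 89936704, had the largest upward difference of all members. Control replicates 1, 2, 3, 4 and 10 stood at 9.09%, 0%, 11.1%, 0% and 8.33%. Mutant replicates 11, 12, 14, 16 and 20 stood at 50%, 20%, 0%, 0% and 50%. Of the 5 mutant embryos 3 lay above every control embryo and 2 at the lowest control level. Means were 5.71% ± 5.31 (SD, n = 5) and 24.0% ± 25.1 (SD, n = 5), a difference of 18.3 points (SE 10.8, 95% interval -6.04 to 42.6, limma adjusted p = 0.834). It was 11.8 points without mutant replicate 11.

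Averaged over the windows with a value, the Rasgrf1 locus averaged 9.25% ± 8.09 (SD, n = 8) for controls and 13.9% ± 16.6 (SD, n = 9) for mutants. Control embryos ran from 0% over a median of 6.43% to 25%, and mutant embryos from 0% over a median of 6.25% to 50%. The difference of 4.68 points was 6.53 in densely covered embryos alone, 15.4 over windows that do not overlap and 0.17 without mutant replicate 19. The set without overlap leaves out R4. Mutant replicate 19 then rests on R1 alone, at 100%, and mutant replicate 20 on R5 alone, at 50%, while mutant replicate 15 drops out. Among the 9 mutants 5 had less than the control mean. As an average over a chosen set of windows, of which embryos had different ones, the difference carries no test.

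At the Gpr1-Zdbf2 locus the 16 windows formed 8 separate stretches, since 6 of them (Z2 to Z7), a pair (Z8 and Z9) and a further 3 (Z12 to Z14) overlap. The highest control means of the locus were those of Z8, Z9 and Z15. In Z8, on chromosome 1 from 63234190 to 63237689, control replicates 1, 2, 3, 4 and 5 stood at 100%, 33.3%, 35.3%, 0% and 50%. Mutant replicates 11, 14 and 16 stood at 11.1%, 0% and 0%. The 3 mutant embryos lay below 4 of the 5 control embryos, and the control embryo at 0% made the groups overlap. Means were 43.7% ± 36.4 (SD, n = 5) and 3.70% ± 6.42 (SD, n = 3), a difference of -40.02 points (SE 19.97, 95% interval -86.8 to 6.79, limma adjusted p = 0.834). This was the largest difference of any member, and 1.52% of all tested windows fell lower. It was -26.0 points without control replicate 1.

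Z9, from 63236472 to 63239971, shares 1218 bp with Z8. Control replicates 1, 2, 3, 4, 5 and 8 stood at 25%, 0%, 50%, 25%, 77.8% and 20%. Mutant replicates 11, 12, 14 and 16 stood at 0%, 26.5%, 3.70% and 0%. Of the 4 mutant embryos 3 lay below 5 of the 6 control embryos, and replicate 12 was the highest of the 4. All 4 lay within the control range, since control replicate 2 stood at 0%. Means were 33.0% ± 27.1 (SD, n = 6) and 7.54% ± 12.7 (SD, n = 4), a difference of -25.4 points (SE 13.8, 95% interval -56.5 to 5.63, limma adjusted p = 0.834). It was -16.5 points without control replicate 5. Over both windows the stretch averaged 36.4% ± 23.3 (SD, n = 6) for controls and 8.47% ± 12.2 (SD, n = 4) for mutants, with controls from 12.5% to 63.9% and mutants from 0% to 26.5%. The 8 embryos with a value in both windows had the same level in both in 1 case, so the windows differ within embryos although they share bases.

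Z15, from 63339043 to 63342542, had the highest control mean of the 21 windows, above that of 97.8% of all tested windows. Control replicates 1, 2, 3, 4, 5 and 10 stood at 62.5%, 17.6%, 30%, 84.6%, 55.6% and 64.3%. Mutant replicates 11, 12 and 14 stood at 12.5%, 0% and 75%. Of the 3 mutant embryos 2 lay below the lowest control embryo and 1 lay above 5 of the 6. Means were 52.4% ± 24.5 (SD, n = 6) and 29.2% ± 40.2 (SD, n = 3), a difference of -23.3 points (SE 19.5, 95% interval -67.9 to 21.4, limma adjusted p = 0.834). All 9 embryos were densely covered.

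The 3 tested members with a control mean of at least 30%, a limit set after the values were seen, were thus all lower by at least 10 points in mutant embryos. Of the 5587 tested windows with a control mean that high, 74.8% were lower by as much, with a median difference of -21.2 points. The limit was set on control values, which also enter the difference, so nothing is read from the shared direction of the 3 windows.

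Z11, from 63287159 to 63290658, had the smallest SE among the windows that differed by 10 points. Control replicates 1, 2, 3, 4, 5 and 10 stood at 8.33%, 20.8%, 3.125%, 7.69%, 10% and 25%. Mutant replicate 11 stood at 8.33% and replicates 12, 14 and 15 at 0%. No control embryo was at 0%, 3 of the 4 mutant embryos lay below the lowest control embryo, and replicate 11 lay within the control range. Means were 12.5% ± 8.49 (SD, n = 6) and 2.08% ± 4.17 (SD, n = 4), a difference of -10.4 points (SE 4.73, 95% interval -21.1 to 0.23, limma adjusted p = 0.834). The value of control replicate 3 is one of those restored from a lost decimal point.

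Z1, from 63198014 to 63201513, turned on 1 embryo. Control replicates 2, 3, 4, 8 and 10 stood at 11.1%, 22.2%, 20%, 0% and 33.3%. Mutant replicates 11, 12 and 16 stood at 0% and replicate 20 at 100%. Means were 17.3% ± 12.5 (SD, n = 5) and 25.0% ± 50.0 (SD, n = 4), a difference of 7.67 points (SE 21.1, 95% interval -40.6 to 56.0, limma adjusted p = 0.930). Without mutant replicate 20, for which this is the 1 window of the locus with a value, the difference was -17.3 points.

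The overlapping windows Z2 to Z7, between 63212984 and 63218992, were nearly unmethylated in both groups and had the most values of the locus. Their mean over each embryo was 2.94% ± 4.02 (SD, n = 8) for controls and 2.75% ± 3.32 (SD, n = 6) for mutants. Control embryos ran from 0% to 12.4%, with replicate 10 the highest, and mutant embryos from 0% to 8.05%. The 6 single differences lay between -1.73 and 0.13 points, with 95% intervals inside -7.42 and 6.63. Z4 and Z5, whose starts at 63214836 and 63214845 share 3491 bp, gave equal values in all 14 embryos with both.

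Z12, Z13 and Z14, between 63309424 and 63315522, were equally low. Over the stretch control embryos averaged 1.51% ± 1.52 (SD, n = 6), from 0% to 3.69%, and mutant embryos 4.07% ± 7.05 (SD, n = 3). Mutant replicate 11 was high, at 19.2% in Z12 and 8.70% in both Z13 and Z14, and replicates 14 and 15 stood at 0% wherever they had a value. The differences at Z13 and Z14 were 1.49 points (SE 3.01) and 1.15 points (SE 3.29). Z12 had 2 mutant values and was not tested.

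Z10, from 63253203 to 63256702, and Z16, from 63396710 to 63400209, also had too few values to be tested. In Z10 control replicates 1, 2, 3, 4, 5, 8 and 10 stood at 12.5%, 0%, 18.2%, 12.5%, 0%, 0% and 25%, and mutant replicates 12 and 14 at 0% and 53.8%. The control mean was 9.74% ± 10.0 (SD, n = 7) and the mutant mean 26.9% (n = 2), which is 17.2 points higher. In Z16 control replicates 2 and 5 stood at 0% and no mutant embryo had a value.

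**Figure D3:**
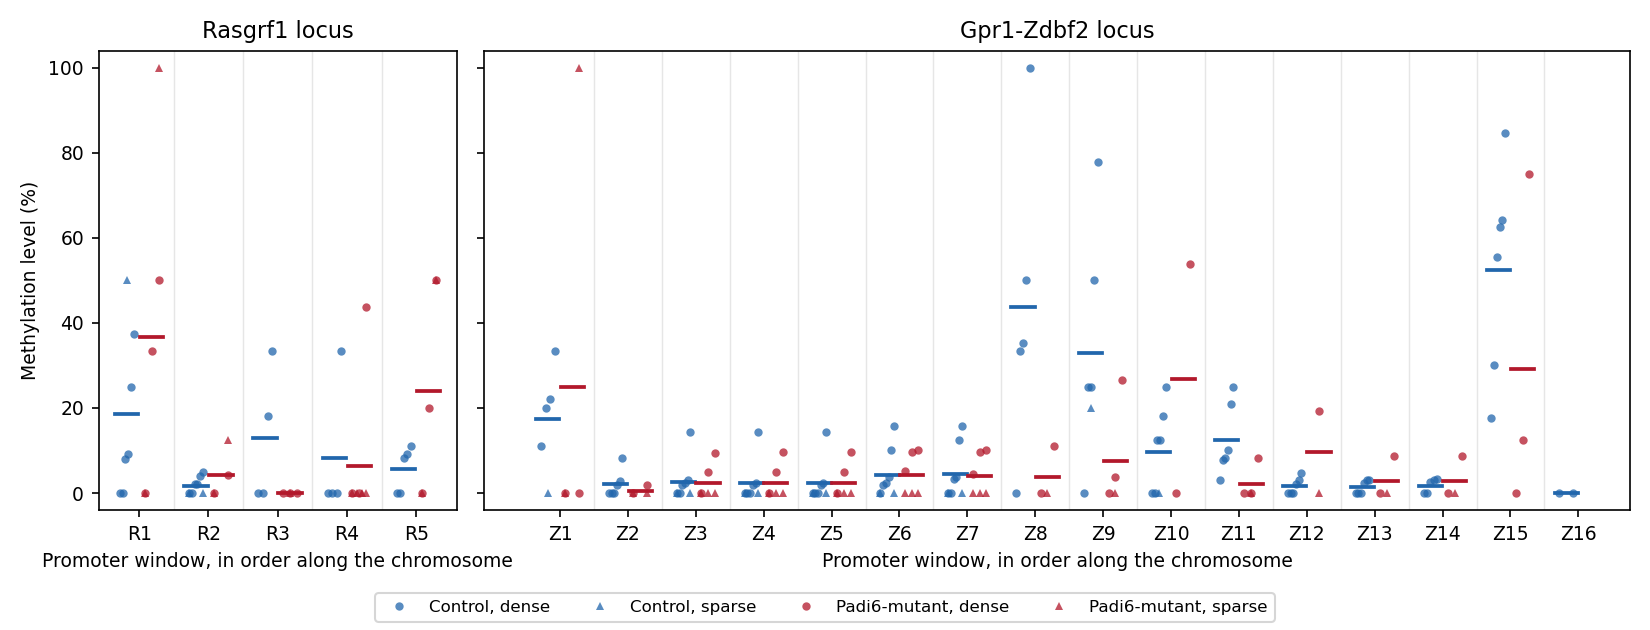
Methylation level (%) of each embryo with a value in each window, by locus and in order along the chromosome, for control (blue) and Padi6-mutant (red) embryos, with circles for densely and triangles for sparsely covered embryos and a line at the mean of each group. Control embryos span 0% to 100% in Z8 and 17.6% to 84.6% in Z15, whereas both groups lie at or under 15.8% throughout Z2 to Z7.

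Averaged over its windows, the Gpr1-Zdbf2 locus averaged 9.44% ± 6.60 (SD, n = 9) for controls and 15.7% ± 34.4 (SD, n = 8) for mutants. The control values ran from 0% over a median of 10.8% to 18.5%, and the mutant values from 0% over a median of 2.32% to 100%. The mean and the median thus ordered the groups differently. Each value averages only the windows that the embryo had, and these differ between embryos, so neither compares the same windows. The difference of 6.23 points turned to -5.81 without mutant replicate 20, whose 100% comes from Z1 alone. In densely covered embryos, which had a value in 10 to 16 of the windows, the means were 13.05% ± 4.11 (SD, n = 6) and 8.45% ± 4.85 (SD, n = 3), a difference of -4.59 points. There control embryos ran from 6.85% to 18.5% and mutant embryos from 4.65% to 13.9%, so the groups overlapped. Of the sparsely covered embryos, 4 mutants other than replicate 20 stood at 0%, as did control replicates 6 and 9, and control replicate 8 stood at 6.67%. Here control replicates 6 and 9 and mutant replicate 19 had values in Z3 to Z7 alone, and mutant replicate 13 in Z2 to Z7 alone. Those windows were nearly unmethylated in both groups.

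**Figure D4:**
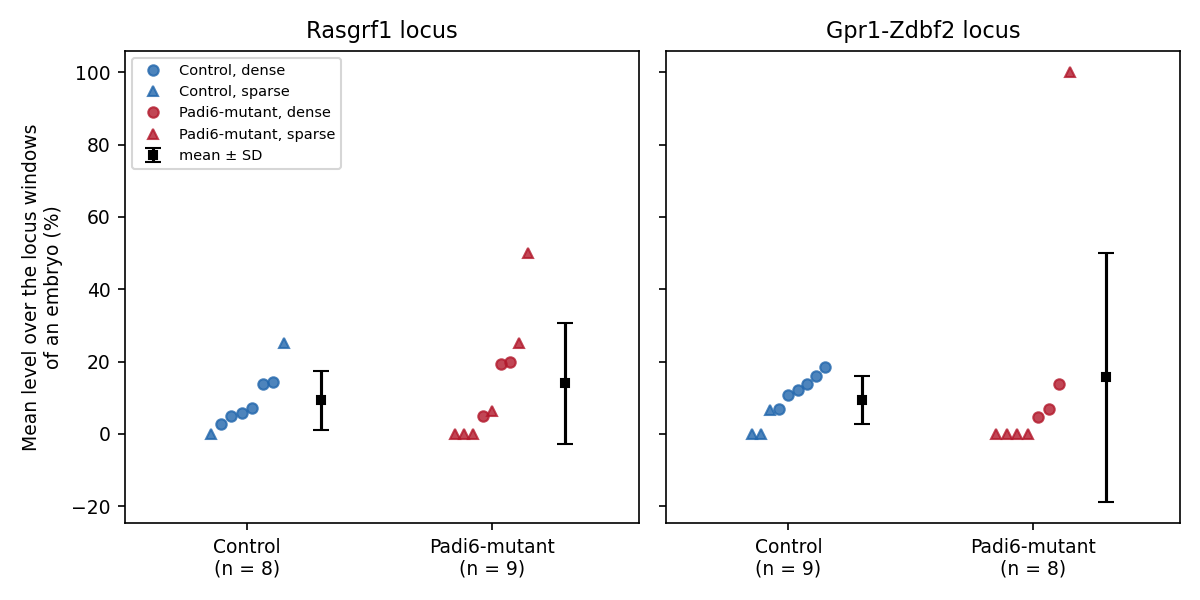
Mean level (%) of an embryo over the windows of the locus with a value, for control and Padi6-mutant embryos, with circles for densely and triangles for sparsely covered embryos and a square with bars at the group mean ± SD. The mutant mean of the Gpr1-Zdbf2 locus rests on 1 embryo at 100%, and the symmetric SD bars reach below 0 although no level does.

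Mutant embryos also differed among themselves. Replicate 14 had 4 of its 17 member values at or above 30%, in R1, R4, Z10 and Z15, yet stood at 0% in Z8 and 3.70% in Z9. Replicate 12 had 10 of 15 member values at 0% and none at or above 30%. Replicates 13 and 15, both sparsely covered, stood at 0% in all of their 9 and 11 values, and the sparsely covered control replicates 6 and 9 did so in all of their 5 and 6. In each of these 4 embryos most of the values lay in Z2 to Z7, which were nearly unmethylated in both groups. Over all windows of the table replicates 14 and 12 had the highest and the lowest mean of the mutant group, at 17.6% and 7.16%, and the part of this in the member values was not tested. Values of exactly 0% made up 62.1% of the mutant and 41.4% of the control values at the members. The groups drew unequally on densely covered embryos, which gave 51 of the 87 mutant and 112 of the 128 control values. Within densely covered embryos 43.1% of mutant and 34.8% of control values were at 0%, and within sparsely covered embryos 88.9% (32 of 36) and 87.5% (14 of 16). The windows with a value also differed between embryos, so none of these shares compares the same windows.

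The spread between control embryos was set beside that of other windows of like level. The control SD was 36.4 points in Z8, 27.1 in Z9 and 24.5 in Z15, and the median SD of tested windows whose control mean was 0.8 to 1.2 times theirs was 29.2, 26.3 and 29.5. In R1 it was 19.5 against 20.8. Z11 and Z1 varied less than windows of their level, with 8.49 against 16.8 and 12.5 against 20.1. Other members lay on both sides, such as R5 with 5.31 against 8.26 and R4 with 16.7 against 11.5.

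The windows elsewhere whose levels followed each locus mean most closely across embryos were searched over windows with at least 12 embryos in common. For the Rasgrf1 locus the closest of 7864 lay on chromosome 7 from 121700610 to 121704109 (Pearson r 0.95, Spearman rho 0.69, 12 embryos), on chromosome 10 from 127347836 to 127351335 (0.94 and 0.77, 12 embryos) and on chromosome 5 from 137497935 to 137501434 (0.93 and 0.73, 13 embryos). Without the 2 embryos farthest from the median of the locus, r was 0.63, 0.63 and 0.74. For the Gpr1-Zdbf2 locus the closest of 8784 lay on chromosome 7 from 109348477 to 109351976 (0.99 and 0.83, 12 embryos), on chromosome 4 from 125994750 to 125998249 (0.98 and 0.78, 13 embryos) and on chromosome 10 from 80125287 to 80128786 (0.98 and 0.72, 12 embryos). There r was 0.69, 0.69 and 0.51 without those 2 embryos. All values of an embryo share its library and coverage, and the highest of so many coefficients is high by selection.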

How the data were processed

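Single mouse blastocysts, 10 control and 10 Padi6-mutant, were profiled by bisulfite sequencing of DNA after removal of polyadenylated RNA. The submitters' processing notes name Trim Galore 0.4.4, Bismark 0.18.2 and build GRCm39 (mm39). The authors deposited levels in percent for promoter windows, 1 column per embryo, without read counts. How calls were combined within a window is not given in the sources used here, so depth is unknown and no counting interval can be given. With few reads a level falls on coarse steps.

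Of 54080 rows 46 repeated another and were dropped. Of 491705 values 1594 (0.324%) were whole numbers above 100 and were read as percents without their decimal point and divided by 1000. An embryo was called densely covered with at least 20000 windows. Differences were tested with limma 3.58.1 in R 4.3.3 on untransformed percent over windows with at least 3 embryos per group, two-sided, with Benjamini-Hochberg adjustment over all of them and no covariates. The procedure was tested on simulated data, with shifts placed in windows of low level with at least 7 embryos per group. No member had that many, so the simulation does not show how well a shift would be found at the members. Labels name no mother, litter or batch, and embryos that share a mother would be counted as separate, so p-values cover the spread among these embryos alone.

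Windows described in full had a mean of the group means or a difference of at least 10 points; the remaining members are also given. The most alike windows had the highest Pearson r over at least 12 embryos, 5 per group. Members, lists and tests were chosen with earlier results of these data known. Lists of other imprinted genes were not analysed here, because window names hold no gene.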

Additional observations from a re-analysis of the deposited data

Results flagged for a closer look

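A single embryo stood apart from the others of its group in 12 of 38 sets of member values checked. The rule compares the gap to the nearest embryo with the range of the set. It is meant to flag about 1 in 20, a rate that need not hold for levels heaped at 0%. The sets are not independent, because windows overlap and the locus means are made from them. Several sets hold otherwise only 0%, and there any single other level is flagged, however low. No excess is therefore read from the count. Among mutant embryos, replicate 20 stood at 100% in Z1 and therefore at 100% in the Gpr1-Zdbf2 locus mean, where the next embryo stood at 13.9%. Mutant replicate 19 stood at 50% in the Rasgrf1 locus mean, with the next at 25%. Mutant replicate 14 stood at 43.75% in R4, mutant replicate 12 at 26.5% in Z9, and mutant replicate 11 at 1.802% in Z2 and 8.33% in Z11. Among control embryos, replicate 10 stood at 14.3% in each of Z3, Z4 and Z5, replicate 1 at 33.3% in R4, and replicate 1 at 8.33% in Z2. Replicates 19 and 20 of the mutant group are sparsely covered, with 7 and 3 member values, and the part of coverage in these values was not tested.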

How the results depend on the processing

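No member passed the threshold in limma under the 25 alternatives that tested any, each with 7 to 18 members. With at least 7 embryos per group and in sparsely covered embryos alone, no member had enough values. Over all windows the count of 14 became 0 where each group needed 5 embryos (unadjusted p under 0.05: 727), 3 where it needed 7, 0 with a variance trend and robust fitting (1705 unadjusted), 4 with embryos centred on their mean deviation, 4 in densely and 2 in sparsely covered embryos. Leaving out single embryos gave 0 (without mutant replicate 12) to 18 (without control replicate 5). It also fell to 4 and 5 without control replicates 3 and 4, and to 9 and 6 without mutant replicates 11 and 14. The direction of a member turned in 39 of 421 estimates. In densely covered embryos the differences were 6.25 points at R4, 1.17 at Z3, 2.66 at Z6 and 2.23 at Z7, and with embryos centred they were 0.93 at Z3, 1.17 at Z6 and 0.90 at Z7. With embryos left out in turn the ranges that crossed 0 were -17.3 to 16 points at Z1, -1.70 to 1.34 at Z3, -1.33 to 1.84 at Z4 and Z5, -1.25 to 1.58 at Z6, -1.54 to 1.27 at Z7, -0.25 to 3.92 at R2 and -8.33 to 6.25 at R4. With embryos left out in turn the locus differences ranged from 0.17 to 6.93 points for Rasgrf1 and from -5.81 to 8.47 for Gpr1-Zdbf2, where densely covered embryos gave -4.59 and the other planned settings 2.26 to 17.8. The causes were not tested. No paired analysis was possible because the groups share no replicate number. Mutant means at tested windows rest on 3 to 7 embryos, and the 95% intervals at Z8, Z9 and Z15 run from large losses to gains.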
